A study of Mus musculus with 4 samples.

Results

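The intervals described here are stretches of mouse autosomes of at least 1 Mb in which no Wapal-binding site was listed in embryonic stem cells (ESCs). Wapal-binding sites were the 8497 listed FB Wapal regions less the 174 that shared at least 1 base with a BirA region, which left 8323 sites, 8164 of them on the 19 autosomes. An interval ran from the centre of 1 site to the centre of the next on the same autosome, and 415 of the 8145 intervals (5.1%) were at least 1 Mb long. The intervals were thus chosen by the measured positions of the sites, and their lengths and their lack of sites are a description and not a finding.

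The 4 samples were all mouse ESCs. The FB Wapal group was 2 independently derived clones that carried the biotin ligase BirA and Wapal with a Flag tag and a sequence that BirA biotinylates, the BirA sample was 1 line with the ligase and no tagged Wapal, and the Input sample was sheared genomic DNA without capture. DNA bound to biotinylated protein was captured on streptavidin and sequenced, and each region carries a MACS score, which rises as the p-value of its enrichment over input falls (lowest listed score 50, highest 685). The regions of both clones were deposited as 1 list with no read counts, so no spread between clones could be computed, the depth behind each interval is unknown, and an interval without a site is one in which no region passed the threshold of the peak caller.

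Cohesin is a ring-shaped protein complex that holds sister chromatids together and shapes loops of chromatin between genes and distal elements. Wapal opens the ring and releases cohesin from DNA, and on mammalian chromosomes cohesin collects at sites bound by CTCF, a zinc finger protein that recognises a defined DNA motif. Large tracts with few or no genes, called gene deserts, and tandem arrays of duplicated genes, such as the receptor clusters of the olfactory system, are both common in mouse chromosomes.

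The sequences below show what the CTCF core motif, a 12-letter pattern searched on both strands, looked like inside the intervals and in the sites at their ends. Capitals mark the motif, each sequence has 30 bases of the mm9 genome read 5′ to 3′ on the strand given, and the lines are from the longest interval, the longest interval without gaps in the assembly, the interval with the most genes and the interval with the most olfactory receptor genes. Lines called left and right are the best match in the site at that end of the interval, and lines called inside are the first exact matches by position.
Longest interval, left site (chr7:38784857-38784886, + strand, 1 mismatch): gataatggaCCACAAGGGGGCatcaaccca
Longest interval, inside (chr7:38846233-38846262, + strand, exact): gaagcgcagCCACCAGATGGCagcagatgc
Longest interval, inside (chr7:38859053-38859082, - strand, exact): tctcagtagCCAGCAGGTGGCacttctgag
Longest interval, inside (chr7:38926921-38926950, - strand, exact): cagaaatgtCCAGCAGAGGGCgcccagccc
Longest interval, right site (chr7:47103689-47103718, + strand, 1 mismatch): gttttctgtCCACTTGATGGCactgttgca
Longest without gaps, left site (chr1:146253935-146253964, + strand, 2 mismatches): cgagtgtggGCGGTAGGTGGCagtgtctgc
Longest without gaps, inside (chr1:146793657-146793686, - strand, exact): gtctatgttCCAGTAGATGGCcttacacaa
Longest without gaps, inside (chr1:147000487-147000516, - strand, exact): ttagccagaCCACTAGAGGGCacagggaaa
Longest without gaps, inside (chr1:148883172-148883201, - strand, exact): gcaggcccaCCAGCAGATGGCcaacagaaa
Longest without gaps, right site (chr1:151605789-151605818, - strand, 1 mismatch): tttagatgtCCACTAGATGTCaccattgac
Most genes, left site (chr7:20542056-20542085, - strand, 1 mismatch): caatcttgaACAGTAGGTGGCgccgctgta
Most genes, inside (chr7:21200635-21200664, - strand, exact): cgcagcataCCAGCAGAGGGCagctccatg
Most genes, right site (chr7:24938463-24938492, + strand, 1 mismatch): cttttccagCCTCCAGGTGGCacaattgtc
Most olfactory receptors, left site (chr2:88196624-88196653, + strand, exact): aaataatgtCCACTAGGTGGCagaataaca
Most olfactory receptors, right site (chr2:90315065-90315094, + strand, exact): caactgtgtCCACTAGGGGGCagtagcaaa

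Exact matches to the motif lay inside 3 of these 4 intervals although no site was listed there. In the interval with the most genes, the first 3 exact matches, at positions 21200635, 22235192 and 22717998 of chromosome 7, were the same 30 bases, and this sequence occurred 5 times in the genome. Each other sequence printed occurred once. The interval with the most olfactory receptor genes held 0 exact matches outside its sites, and both of its bounding sites held 1. A match is a description of letters and not evidence of binding.

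The long intervals covered 765 Mb, or 31.9% of the length of all intervals, of which 748 Mb were sequenced bases and the rest runs of N (unknown bases) in the assembly. Their median length was 1.52 Mb, 124 were at least 2 Mb long and 48 at least 3 Mb. The longest ran 8.32 Mb on chromosome 7, but 7 Mb of it was N and 1.32 Mb was sequenced. In all, 32 long intervals held 50 kb or more of N and 6 held under 1 Mb of sequenced bases. At the threshold, the 3 intervals just inside were 1000390, 1004557 and 1008855 bp long, and the 3 just outside 999400, 997854 and 997782 bp. The nearest on each side held 1 protein-coding 5′ end, March1 (a ubiquitin ligase) in the shortest long interval and Cdh20 (a cadherin) in the longest short one.

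**Figure D1:**
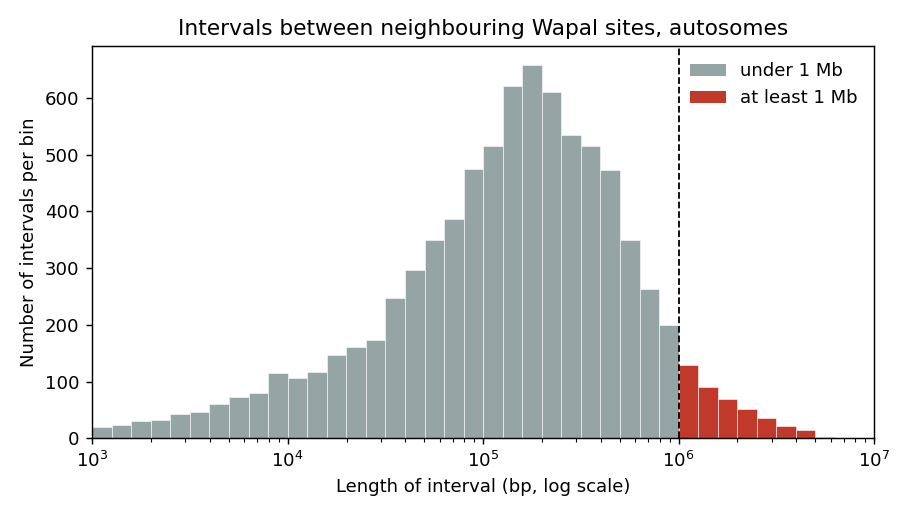
Number of intervals between neighbouring Wapal sites on the autosomes (y axis) by length (x axis, bp, log scale), with intervals of at least 1 Mb in red and the threshold dashed. The 415 red intervals are the right tail of 1 continuous distribution; intervals under 1 kb lie left of the axis and are not drawn.

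Every autosome had long intervals. They took 18.95% of the interval length of chromosome 11 and 46.1% of chromosome 12, the lowest and highest shares. Chromosome 14 followed with 41.7%, and its long intervals held 14.5% of its protein-coding genes, against 4.92% of those of chromosome 11. Long intervals fell into 371 runs of neighbouring long intervals, 332 of which were a single interval and 39 of which held at least 2. Only 5.1% of all intervals were long, which by itself makes a long neighbour rare. Whether long intervals adjoined more or less often than that share sets was not tested. The run with the most intervals had 5, over 10.9 Mb of chromosome 14.

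The sites at the ends of long intervals had scores close to those of other sites and were narrower. Their median width was 752 bp, against 822 bp for the other autosomal sites and 673 bp for the 44 sites with a long interval on both sides. The 786 bounding sites had a median score of 81.3 (quartiles 61.7 to 117) and the other 7378 autosomal sites a median of 81.7 (62.8 to 116). Of the bounding sites 71.8% held a CTCF core motif allowing 1 mismatch, and of the others 74.8%, and an exact one in 26.3% and 28.6%. Those 44 sites had a median score of 70.9 and the motif in 63.6%. Regions of the BirA line were also fewer per Mb in the long intervals, with 21 of 256 there, or 0.0281 per sequenced Mb, against 0.144 per Mb in short intervals. Of the FB Wapal regions removed for sharing a base with a BirA region, 12 lay in 12 of the long intervals.

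Protein-coding genes were sparse in the long intervals. By the position of the gene's 5′ end, 2930 of the 21281 autosomal protein-coding genes (13.8%) lay in long intervals, which made 3.92 genes per sequenced Mb against 11.1 in intervals under 1 Mb (95% Poisson intervals 3.78 to 4.06 and 10.96 to 11.3, for counting error only). The median long interval held 3 genes (quartiles 1 to 6), at a density of 1.68 per Mb (quartiles 0.738 to 3.90), and the range was wide, from 0 to 110 genes and up to 48.7 per Mb. Annotated gene bodies covered 22.3% of the bases of long intervals and 47.1% of those of short ones. Counting genes of every type, 6174 of 34516 (17.9%) lay in long intervals, at 8.26 per Mb against 17.2 per Mb.

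The density of genes fell with the length of the interval on both sides of the 1 Mb threshold. It was 16.1 genes per Mb in intervals under 0.1 Mb, 14.0 at 0.1 to 0.25 Mb, 11.3 at 0.25 to 0.5 Mb and 7.69 at 0.5 to 1 Mb. Within the long intervals it was 5.08 at 1 to 1.5 Mb, 4.28 at 1.5 to 2 Mb and 2.46 at 2 to 3 Mb, and it was higher again, at 3.50, in the 48 intervals of 3 Mb or more. CTCF core motifs with at most 1 mismatch followed the same order outside the sites, from 118 per Mb in the shortest class to 47.4 per Mb at 2 to 3 Mb and 48.6 at 3 Mb or more. Over all bases outside sites, long intervals held 53.8 such motifs per Mb and short intervals 96.5, and of exact motifs 2.27 and 5.01 per Mb. GC content moved along with these values, at 39.2% in long and 43.2% in short intervals, and its part in the difference was not tested.

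**Figure D2:**
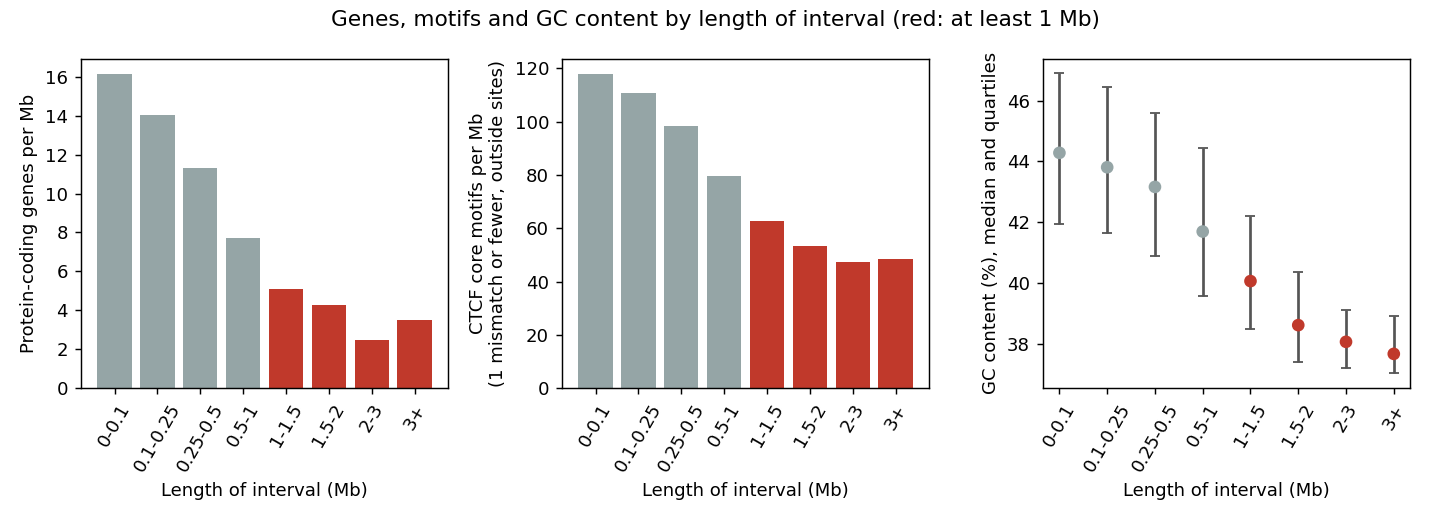
Protein-coding genes per sequenced Mb (left, bars), CTCF core motifs with at most 1 mismatch per Mb outside sites (middle, bars) and GC content (right, median with quartiles over intervals, axis not from 0) by length class of the interval in Mb, with the long classes in red. Genes fall from 16.1 to 2.46 per Mb between the shortest class and 2 to 3 Mb, and motifs and GC content fall alongside them.

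The long intervals ranged from gene deserts to dense clusters. At 1 end, 37 of them (8.92%, exact binomial 95% interval 6.36 to 12.1%) had no protein-coding 5′ end, and 21 of these overlapped no protein-coding gene at all. Among short intervals 32.2% had none, a share that is not comparable because those intervals are much shorter. Among the long ones the share without a gene was 8.42% at 1 to 1.5 Mb, 11.2% at 1.5 to 2 Mb, 9.21% at 2 to 3 Mb and 6.25% at 3 Mb or more. The intervals without a gene had a GC content of 37.8% and 41.0 core motifs per Mb. At the other end, 42 intervals with at least 20 genes held 1636 of the 2930 genes at 19.3 per Mb, more than the density of the short intervals. That density follows in part from choosing intervals by their number of genes, and the short intervals were not so chosen. The 310 intervals with 1 to 9 genes held 941 genes at 1.70 per Mb.

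Repeated sequence moved with this difference. The share of 49-base windows that occur once in the genome, which is where a uniquely aligned read can be placed, was 84.3% in long and 91.8% in short intervals. In 57 of the long intervals (13.7%, against 5.01% of all intervals) fewer than 80% of windows were unique, and these 57 held 1306 genes at 12.6 per Mb. Short intervals with under 80% unique windows held 15.5 genes per Mb. The other 358 long intervals held 1624 genes at 2.52 per Mb, against 10.9 per Mb in short intervals with the same share of unique windows. The 42 intervals with at least 20 genes had 62.5% unique windows, the 37 without a gene 88.1%. Reads that align to more than 1 place were dropped by the authors, so a site in a repeated stretch could go unlisted, and the part of this in the gene-rich long intervals was not tested.

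**Figure D3:**
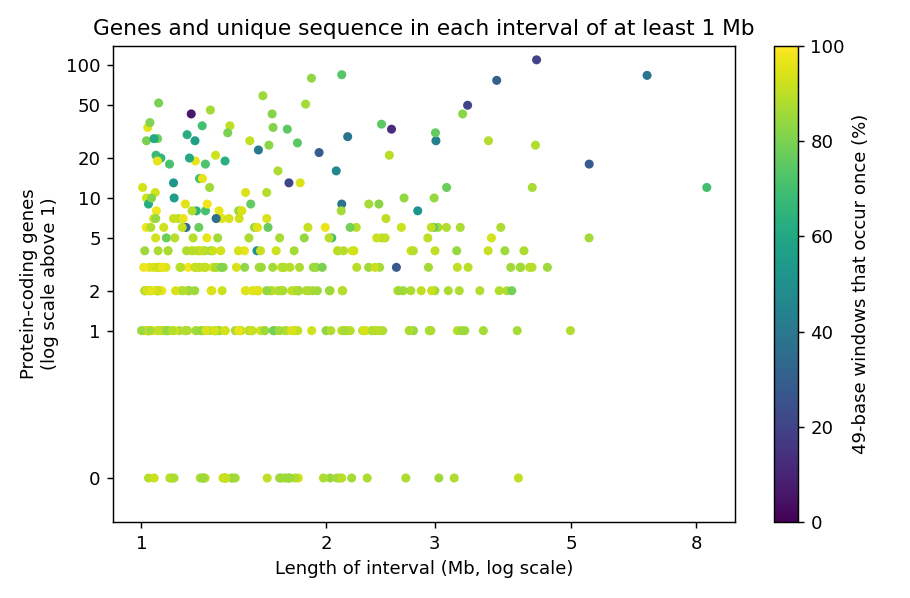
Number of protein-coding genes (y axis, linear from 0 to 1 and log scale above) against length (x axis, Mb, log scale) for each of the 415 long intervals, coloured by the percent of 49-base windows that occur once. Most intervals with at least 20 genes are darker, with less unique sequence, than those with 0 to 9 genes, which make up the bulk of the plot.

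Among the 10 longest intervals, 4 held at most 5 protein-coding genes, several of them known from the nervous system. An interval of 4.99 Mb on chromosome 14 (81971250 to 86962728, 88.0% unique windows) held 1 protein-coding gene, Pcdh17, a protocadherin of neurons, whose 5′ end was 2119 kb from the nearest site. An interval of 4.58 Mb on chromosome 10 (46547137 to 51125158, 85.2% unique) held 3: Grik2 (a kainate-type glutamate receptor subunit), Ascc3 (a helicase) and Sim1 (a transcription factor of the hypothalamus). An interval of 5.35 Mb on chromosome 1 (146254041 to 151605800, 86.1% unique) held Rgs21 and Rgs18, regulators of G-protein signalling, the predicted genes Gm5263 and Gm9931, and Fam5c, a gene of the brain that lay 2089 kb from a site. An interval of 4.32 Mb on chromosome 12 (94788425 to 99110834, 88.8% unique) held Gm9726, 1700019M22Rik and Flrt2, a leucine-rich adhesion gene 2142 kb from a site.

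Another pair of the 10 longest lay on chromosome 6 and were largely unique in sequence. One of 4.38 Mb (42533657 to 46911472, 88.4% unique) held 25 genes, of which 17 were olfactory receptors. Its longest genes included Cntnap2, an adhesion gene of axons, and Fam115a. The other, of 4.33 Mb (77600311 to 81926157, 87.1% unique), held 12 genes, the longest of them Ctnna2 (a neuronal catenin), Lrrtm4 (a synaptic adhesion gene) and AW146020.

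The remaining 4 of the 10 longest were poor in unique sequence or full of gaps. The 8.32 Mb interval on chromosome 7 (38784861 to 47103714) held 12 genes, C80913, Zfp619 and 1600014C10Rik being the longest. An interval of 6.65 Mb on the same chromosome (6980407 to 13631650, 38.4% unique) held 84 genes, with 19 type 1 and 28 type 2 vomeronasal receptors and 19 Zfp-named zinc finger genes, the longest genes being 2900092C05Rik, Nlrp4b and Vmn2r56. An interval of 5.35 Mb on chromosome 12 (19934008 to 25288322, 28.6% unique) held 18 genes, the longest of them Asap2, Taf1b and 9030624G23Rik. An interval of 4.40 Mb on chromosome 7 (20542033 to 24938480, 20.0% unique) held the most genes of any, 110, of which 65 were type 1 vomeronasal receptors and 3 Zfp-named genes, and its longest genes were Vmn1r112, Gm6882 and Gm4545.

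The next in number of genes was an interval of 2.12 Mb on chromosome 2 (88196550 to 90315141, 73.8% unique) with 85 genes, 84 of them olfactory receptors. It shared its left site with an interval of 1.89 Mb (86305097 to 88196549, 83.5% unique) that had 80 genes, 78 of them olfactory receptors. The longest genes of the first were Olfr140, Olfr1213 and Olfr1223, and those of the second Pramel7, Olfr1157 and Olfr1080. The site between them (88196258 to 88196841, score 109) carried the exact motif printed above as the left site of the interval with the most olfactory receptors. An interval of 3.79 Mb on chromosome 14 (41976262 to 45762436, 30.9% unique) held 77 genes, 62 of them with predicted-gene names beginning with Gm, and its longest genes were Gm7995, 1700024B05Rik and Gm8257.

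Chemosensory receptors, which detect odours, pheromones and tastes, included the olfactory and type 1 vomeronasal receptors, which of the 45 families described had the most genes in the long intervals. Of 1106 olfactory receptor genes, 475 (42.9%, Wilson 95% interval 40.1 to 45.9%) lay in 14 long intervals, against 13.8% of all protein-coding genes and 31.9% of interval length. The comparison with length turned at a threshold of 2 Mb, with 9.22% of olfactory receptors and 5.00% of genes in 15.5% of the length, and in long intervals with at least 80% unique windows, with 23.4% of olfactory receptors and 7.63% of genes in 26.98% of the length. Among the 172 of 205 type 1 vomeronasal receptors there (83.9%, 78.3 to 88.3%), 65 shared the interval with the most genes and 33 shared 1 on chromosome 13. Type 2 vomeronasal receptors had 80 of 118 members (67.8%) in 9 long intervals, and bitter taste receptors had 24 of 35 (68.6%) in 1 interval of 2.46 Mb on chromosome 6. Of 7 formyl peptide receptors, which sense bacterial peptides, 4 (57.1%) shared an interval of 3.33 Mb on chromosome 17 with 10 type 1 and 20 type 2 vomeronasal receptors. Trace amine receptors, another family of olfactory receptors, had 0 of 15 members in long intervals, which allows a share of up to 20.4%. These families sit in tandem clusters, so members that share an interval are not separate observations, and the intervals given cover counting error only.

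The families differed in how repeated their long intervals were. Of the 475 olfactory receptors 259 lay in long intervals with at least 80% unique windows, of the 172 type 1 vomeronasal receptors 38, of the 80 type 2 receptors 30, and of the 24 bitter taste receptors 0. Without the olfactory and vomeronasal receptors, the density of protein-coding genes was 2.95 per Mb in long and 10.7 per Mb in short intervals.

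**Figure D4:**
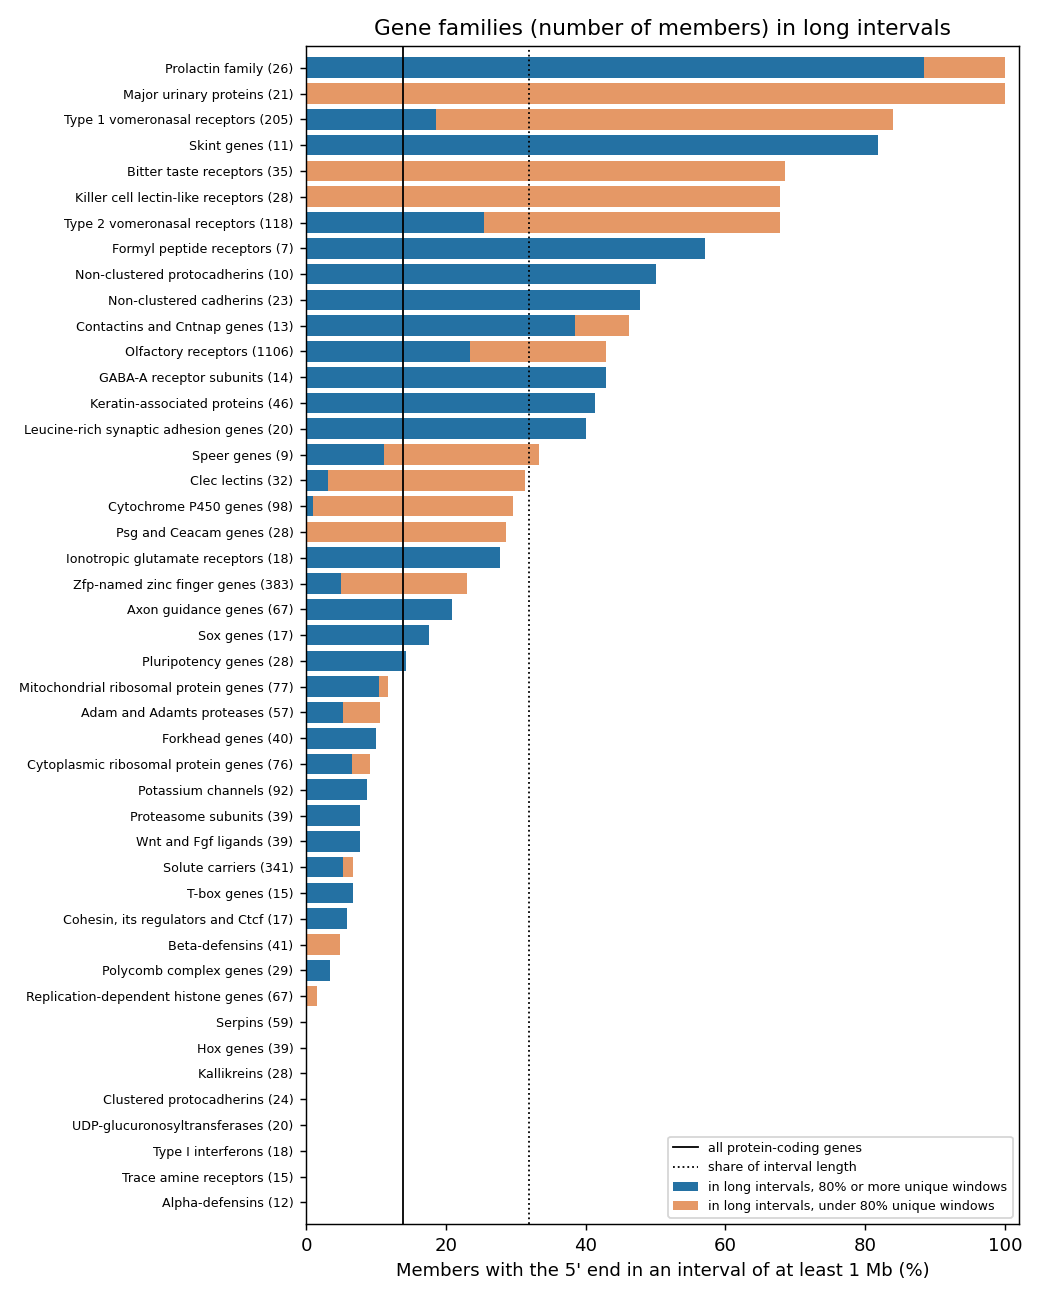
Percent of the autosomal members of each of 45 gene families (number of members in brackets) whose 5′ end lay in an interval of at least 1 Mb, split into intervals with at least 80% (blue) and under 80% (orange) unique 49-base windows. The solid line is the share of all protein-coding genes (13.8%) and the dotted line the share of interval length (31.9%); 16 families reach beyond both, and 8 families are at 0.

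Other families that grew by tandem duplication were split between the long and the short intervals. All 21 major urinary protein genes, which encode the pheromone carriers of mouse urine, lay in 1 interval of 1.95 Mb on chromosome 4 with 29.5% unique windows. All 26 genes of the prolactin family, most of which encode hormones of the placenta, lay in 2 intervals, 23 of them in 1 of 3.67 Mb on chromosome 13 with 88.0% unique windows. Skint genes, which act in the selection of skin T cells, had 9 of 11 members in 1 interval of 2.68 Mb on chromosome 4. Killer cell lectin-like receptors, the receptors of natural killer cells, had 19 of 28 (67.9%) in 1 interval of 1.79 Mb on chromosome 6. That interval had 74.6% unique windows and was followed directly by the one with the bitter taste receptors. Keratin-associated proteins of the hair shaft had 19 of 46 (41.3%) in 1 interval of 1.39 Mb on chromosome 16 with 90.0% unique windows.

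Families of enzymes, lectins and zinc finger genes had smaller shares. Of 98 cytochrome P450 genes, enzymes that oxidise steroids and foreign compounds, 29 (29.6%) lay in 4 long intervals, and 14 of them made up the whole gene content of 1 interval of 1.24 Mb on chromosome 19. Clec lectins, receptors of immune cells, had 10 of 32 (31.2%), and Psg and Ceacam genes, secreted and surface glycoproteins of the placenta and epithelia, 8 of 28 (28.6%). Zfp-named zinc finger genes, many of which encode DNA-binding repressors, had 88 of 383 (23.0%) spread over 32 long intervals, and 19 of the 88 were in intervals with at least 80% unique windows. Speer genes had 3 of 9 members in long intervals. Few of these genes lay in intervals with at least 80% unique windows. They were 1 of the 29 cytochrome P450 genes, 1 of the 10 Clec lectins, 0 of the 8 Psg and Ceacam genes and 1 of the 3 Speer genes.

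Clustered families were not all alike, since several had no member in a long interval. Serpins (protease inhibitors) had 0 of 59, kallikreins (secreted proteases) 0 of 28, UDP-glucuronosyltransferases 0 of 20, type I interferons 0 of 18 and alpha-defensins 0 of 12. The upper limits on these shares were 6.11%, 12.1%, 16.1%, 17.6% and 24.2%. Those of UDP-glucuronosyltransferases, type I interferons and alpha-defensins lie above the 13.8% of all genes. Members of a cluster are not separate observations, and the limits cover counting error only. Beta-defensins had 2 of 41 (4.88%), Defb8 and Defb7. The clustered protocadherins, adhesion genes by which neurons recognise themselves, had 0 of 24, and the median distance from their 5′ ends to a site was 4.65 kb. Replication-dependent histone genes had 1 of 67, Hist1h2bj, whose 5′ end was 0.131 kb from the centre of the site that ends its interval.

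Adhesion and receptor genes of the nervous system formed another group, and they were spread over many intervals. Of 23 non-clustered cadherins 11 (47.8%, Wilson 95% interval 29.2 to 67.0%) lay in 9 long intervals, among them Cdh7, Cdh19, Cdh6, Cdh9, Cdh10 and Cdh12. Of these, Cdh6, Cdh9 and Cdh10 were each the only protein-coding gene of 1 of 3 neighbouring intervals of 1.49, 2.47 and 1.72 Mb on chromosome 15. Non-clustered protocadherins had 5 of 10 (Wilson 95% interval 23.7 to 76.3%): Pcdh7, Pcdh9, Pcdh10, Pcdh17 and Pcdh20. The Wilson intervals of both families lay above the 13.8% of all genes and held the 31.9% of interval length. Cadherins that share an interval or lie in neighbouring ones are not separate observations, and the limits cover counting error only. The 5′ ends of Pcdh7 and Pcdh9 were 1019 and 1124 kb from a site. All 16 of these genes lay in intervals with at least 80% unique windows.

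Synaptic and axon guidance genes had shares from 20.9% to 46.2%, some below the 31.9% of interval length. Contactins and Cntnap genes, which join axons to glia and to other axons, had 6 of 13 (46.2%) in 6 intervals. Subunits of the GABA-A receptor, the main inhibitory channel of the brain, had 6 of 14 (42.9%) in 2 intervals. Leucine-rich synaptic adhesion genes had 8 of 20 in 8 intervals, among them Flrt2, Slitrk1, Slitrk5, Flrt3, Lingo2 and Lrrtm1. Ionotropic glutamate receptors had 5 of 18 (27.8%), among them Grik2, Gria1, Grid1 and Grin3a. Axon guidance genes had 14 of 67 (20.9%) in 14 intervals, with Ntn1, Sema5b, Epha6, Robo2, Efna5 and Ntng1 the first by position. Potassium channels had 8 of 92 (8.70%). The Wilson 95% intervals of potassium channels (4.47 to 16.2%), glutamate receptors (12.5 to 50.9%) and axon guidance genes (12.9 to 32.1%) held the 13.8% of all genes. Those of contactins and Cntnap genes (23.2 to 70.9%), GABA-A subunits (21.4 to 67.4%) and leucine-rich genes (21.9 to 61.3%) lay above it. These latter Wilson intervals held the 31.9% of interval length. Of the 6 GABA-A subunits, 4 shared an interval on chromosome 11 and 2 shared another on chromosome 5. Members that share an interval are not separate observations, and the Wilson limits cover counting error only.

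Long genes were placed in long intervals more often than genes of middling length. Of genes of 1000 kb or more 24 of 48 (50.0%) had their 5′ end in a long interval, and of those of 500 to 1000 kb 58 of 140 (41.4%). The share was 17.8% at 200 to 500 kb, 9.32% at 50 to 200 kb and 8.87% at 10 to 50 kb, and it was higher again, at 19.6%, for genes under 10 kb.

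**Figure D5:**
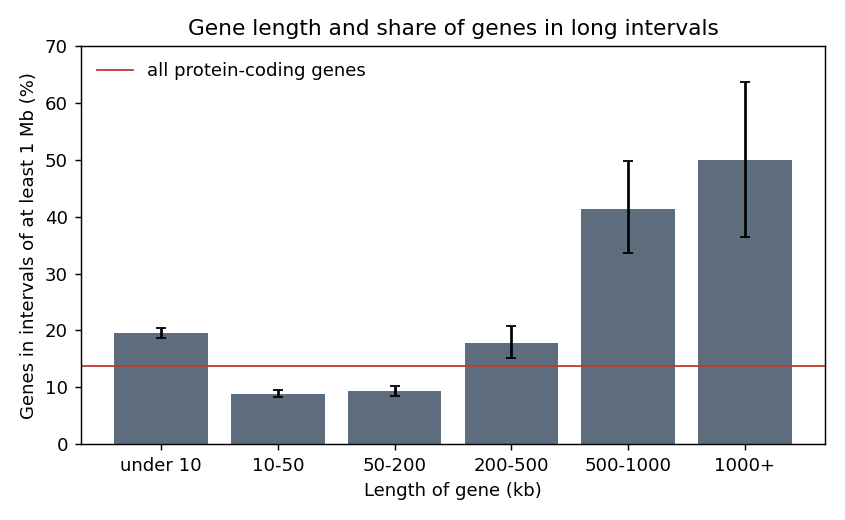
Percent of autosomal protein-coding genes whose 5′ end lay in an interval of at least 1 Mb (y axis) by length of the gene in kb (x axis); bars are shares, error bars Wilson 95% intervals for counting error and the red line the share of all genes (13.8%). The share is lowest at 10 to 200 kb and reaches 50.0% for genes of 1000 kb or more.

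The 10 longest genes with the 5′ end in a long interval ran from 2.27 Mb down to 1.23 Mb and included Ptprd, Cntnap2, Lrp1b, Macrod2, Fhit, Gpc5, Lrrc4c, Lingo2 and Odz2. Ptprd encodes a receptor phosphatase, Lrp1b a receptor of the LDL receptor family, Gpc5 a glypican, and Lrrc4c and Odz2 adhesion proteins of neurons. Although their 5′ ends lay in long intervals, 8 of the 10 reached past the end of the interval and held 1 to 4 sites. Fhit (1.61 Mb, chromosome 14) and Lingo2 (1.24 Mb, chromosome 4) lay wholly inside their intervals and held 0 sites. Their 5′ ends were 978 and 609 kb from the nearest site, and Lingo2 was the only protein-coding gene of its interval.

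Regulators of development had few genes in the long intervals, and for the Sox, forkhead, Wnt and Fgf and T-box genes the Wilson 95% interval of the share held the 13.8% of all genes. All 39 Hox genes, which set position along the body axis, lay outside long intervals, where 0 of 39 allows a share of up to 8.97%. Hox genes sit in clusters, so they are not separate observations and this limit covers counting error only. Of 17 Sox genes 3 (17.6%) lay in long intervals: Sox9, a regulator of cartilage and testis, Sox11 and Sox4, both of neural progenitors, at 383, 257 and 651 kb from a site. Forkhead genes had 4 of 40 (10.0%), among them Foxa1 of the endoderm, Foxn3 and Foxp2. Wnt and Fgf ligands had 3 of 39 (7.69%), Wnt5a, Fgf12 and Fgf5, and T-box genes 1 of 15, Tbx15. The intervals of Sox11 (1.07 Mb) and Myc (1.02 Mb) were close to the threshold, and Twist1, a regulator of mesoderm, lay in 1 of 0.952 Mb, just under it.

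Families that ESCs and other cells rely on had shares near or below the 13.8% of all genes. Of 28 pluripotency genes 4 (14.3%) lay inside: Myc, Dppa4, Dppa2 and Sall4. The 5′ end of Myc, a growth regulator, was 1.91 kb from a site at the end of its interval, and it was the only protein-coding gene there, while Dppa2 was 18.1 kb and Sall4 88.2 kb from a site. Cytoplasmic ribosomal protein genes had 7 of 76 (9.21%), mitochondrial ones 9 of 77 (11.7%) and proteasome subunits 3 of 39 (7.69%). Solute carriers, which move small molecules across membranes, had 23 of 341 (6.74%), and Adam and Adamts proteases 6 of 57 (10.5%). Of 17 genes of cohesin, its regulators and Ctcf, 1 lay inside: Mau2, which loads cohesin together with Nipbl. Of 29 Polycomb genes 1 lay inside: Phf19, an accessory factor of PRC2. Across all genes of the long intervals, 116 of 2930 (3.96%) had the 5′ end within 20 kb of a site and 1016 were over 500 kb away, values that the choice of intervals sets in part.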

How the data were processed

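FB Wapal ESCs (2 clones) and a BirA line were profiled by capture on streptavidin and sequencing, with Input, sheared genomic DNA, sequenced without capture. Per the submitters' notes and the methods, reads were aligned to mm9 with Bowtie, reads with more than 1 alignment were dropped, and regions were called against input with MACS 1.4.2 at p of 1e-05. The authors deposited 1 list for both clones and 1 for BirA. The deposited value of each region is the MACS score. The rule that joined the clones is not given in the sources used here. The methods give a minimum number of aligned reads per sample, but the lists hold no read counts, so local depth and the precision of single regions are unknown.

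Intervals were computed with Python 3.11.15, numpy 2.4.6, pandas 2.3.3, scipy 1.17.1, numba 0.67.0 and matplotlib 3.10.9. Chromosome X and the ends of autosomes before the first and after the last site (259 protein-coding genes) were left out. Genes were those of GENCODE M1 on the same build, placed by their 5′ end, and 137 protein-coding entries that repeat a symbol on a chromosome were merged with the longest. Densities used bases other than N. Unique windows were 49 bases long, sampled every 500 bases. The CTCF core motif was searched on both strands with at most 1 mismatch (0 and 2 as alternatives). Placement and counting were tested on simulated lists.

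Intervals, families and alternatives were chosen with earlier results of these data known. Genes named were those of the 10 longest intervals (all where there were 8 or fewer, otherwise the 3 longest and families with at least 3 members), of the 5 intervals with the most genes, the 10 longest genes, up to 6 members of each family in order of position, and the intervals nearest 1 Mb. Other genes and intervals named, and the sequences other than those of the longest interval, were chosen after their values were seen. Some genes that the rule names are not reported here. With 1 list and members chosen by its positions, no test was made and values are descriptions.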

Additional observations from a re-analysis of the deposited data

How the results depend on the processing

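Of 98 values recomputed under alternatives, 41 stayed close to the value reported and 57 moved. Genes per Mb were lower in long than in short intervals under 11 of 11 settings, and CTCF core motifs per Mb under 11 of 11. A score of at least 100 gave 733 long intervals with 69.1% of interval length, 54.6% of protein-coding genes, 77.3% of olfactory receptors, 0.819% of intervals without a gene, 88.1% unique windows, 7.19 against 12.5 genes per Mb and 76.1 against 107 motifs per Mb. A threshold of 500 kb gave 1229 intervals, 55.2% of length, 33.9% of genes, 75.6% of olfactory receptors, 86.8% unique windows, 5.53 against 12.9 genes and 65.5 against 110 motifs per Mb. A threshold of 2 Mb gave 124 intervals, 15.5% of length, 5.00% of genes, 9.22% of olfactory receptors, 81.7% unique windows, 2.98 against 9.89 genes and 48.2 against 92.3 motifs per Mb, so the share of olfactory receptors fell below that of length. Keeping BirA regions gave 31.6% of length and 84.4% unique windows, site edges 32.0% of length and 96.5 motifs per Mb in short intervals, and sequenced bases 31.5% of length and 84.4% unique windows. Counting genes wholly inside gave 13.2% of genes, 3.75 against 9.65 per Mb and 17.3% of intervals without one, any overlap 14.3%, 4.09 against 13.1 and 5.06%, and all gene types, with repeated entries not merged, 17.9%, 8.29 against 17.2 and 0.723%. With 0 mismatches there were 2.41 against 6.37 motifs per Mb, and with 2 mismatches 638 against 891. Alternatives chosen after seeing the data were bases outside sites, with 96.5 motifs per Mb in short intervals, and intervals with at least 80% unique windows, with 7.63% of genes, 23.4% of olfactory receptors, 2.52 against 10.9 genes and 50.4 against 101 motifs per Mb. Under that last setting the share of olfactory receptors was above that of all genes and below the 26.98% of interval length in these intervals. The cause of these shifts was not tested beyond what each setting leaves in.

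No paired analysis was possible because both FB Wapal clones share 1 list, and for the same reason no clone was left out. An alternative measure of repeats from soft-masked bases was not run, since the genome file has 0 lower-case bases.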

Other observations

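Gene classes outside the families above were looked at after their values were seen, and they are given as counts with no test. Entries of the annotation's IG_V_gene class, V segments of antibodies that here include T cell receptor segments, had 279 of 355 entries (78.6%, Wilson 95% interval 74.0 to 82.5%) in 4 long intervals, while those of the IG_J_gene class, J segments of both kinds, had 0 of 88, which allows a share of up to 4.18%. Among small RNA genes, 478 of 1458 snoRNA entries (32.8%), 333 of 1331 snRNA entries (25.02%) and 322 of 1468 miRNA entries (21.9%) lay in long intervals, against 17.9% of genes of all types. They lay in 184, 197 and 162 long intervals. An interval of 2.99 Mb on chromosome 7 held 200 genes of all types, 6 of them protein-coding. Another of 1.06 Mb on chromosome 12 held 90, of which 3 were protein-coding. The small RNA classes were not counted separately in these. Entries of any class here that share an interval are not separate observations, and the Wilson limits cover counting error only. Pseudogenes had 1207 of 4055 (29.8%) and lincRNAs 159 of 1232 (12.9%). Repeated sequence in the intervals of these classes, the V segments included, was not taken into account.

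Among protein-coding symbols that share a stem, Klra genes (the Ly49 receptors of natural killer cells) had 11 of 11 members in 1 long interval. They belong to the killer cell lectin-like receptors described above and are not a separate observation. Zscan genes had 9 of 16 in 2, Nlrp genes (many expressed in oocytes) 8 of 18 in 4, Sult genes (sulfotransferases) 6 of 17 in 1 and Ccl chemokines 6 of 23 in 1. Predicted genes with Gm names had 566 of 1851 members (30.6%) in 149 long intervals, against 13.8% of all protein-coding genes.

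All 37 long intervals without a protein-coding 5′ end had at least 80% unique windows. The longest of them was 4.11 Mb on chromosome 18 with 91.0% unique windows, followed by 3.23 Mb on chromosome 16 with 88.1% and 3.05 Mb on chromosome 5 with 85.4%. The 5 long intervals with the fewest unique windows, from 5.93% to 21.3%, held 13 to 110 protein-coding genes each.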
